A study of Mus musculus with 64 samples.

Results

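The mitochondrial chromosome of the mouse carries 37 genes, and all 37 were found among the 48795 gene rows of the table by their symbols, which start with mt-. They comprise 13 messenger RNAs, 2 ribosomal RNAs and 22 transfer RNAs. Their counts were followed in biventricular heart tissue of male C57BL/6 mice in which E4BP4, a transcriptional repressor encoded by Nfil3, was knocked out in cardiomyocytes (CEK), and of littermate controls (CON). Hearts were taken at 8 zeitgeber times (ZT0, 3, 6, 9, 12, 15, 18 and 21), with 4 libraries labelled as biological replicates for each genotype and time, 64 in all. The labels name neither the age of the animals, nor the promoter that restricts the knockout to cardiomyocytes, nor the alleles that the controls carry. RNA libraries were made from total RNA with the SMARTER mRNA-Seq kit.

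The mitochondrial chromosome is transcribed from both strands into long precursors that cover many genes at once. Most genes are read from the heavy strand; mt-Nd6 and several transfer RNAs are read from the light strand. Transfer RNAs lie between the other genes, and their removal from the precursor releases the messenger and ribosomal RNAs, which are then stabilised, given short poly(A) tails or degraded at different rates. The messenger RNAs encode core subunits of respiratory complexes I, III and IV and of the ATP synthase, and the ribosomal and transfer RNAs serve their translation inside the organelle, which in heart muscle supplies most of the ATP for contraction.

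The depth on genes was 7.71 to 45.6 M counts per library (median 26.7 M). The targeted gene separated the genotypes: Nfil3 ranged from 0.491 to 4.84 (median 1.75) in CEK hearts and from 5.51 to 31.5 (median 15.8) in CON hearts, in counts-per-million of all gene counts (CPM), so the groups did not overlap. Its log2 fold change averaged over times was -3.0 (SE 0.07, adjusted p = 3.35e-39 in edgeR's quasi-likelihood test with Benjamini-Hochberg adjustment over all genes). Markers of working cardiomyocytes were abundant in every library, with 12 of 12 detected and summed levels of 100350 to 121132 CPM in CEK and 104783 to 127463 CPM in CON. Markers of atrial cardiomyocytes were all detected. Their sum on the same scale varied widely, from 214 to 3328 in CEK (median 826) and from 251 to 5468 in CON (median 1505), so libraries differed in atrial RNA. In all, 5 libraries are treated apart where a result rests on them. Over all genes, 3 libraries stood apart from the others: replicate 1 of CEK at ZT18, replicate 4 of CEK at ZT0 and replicate 3 of CON at ZT18. CEK at ZT12 replicate 1 and CON at ZT15 replicate 1 were rich in ribosomal RNA of both mitochondrial and nuclear origin.

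Mitochondrial genes took a large part of the gene counts, and nearly all of that was messenger RNA. The share ranged from 10.5 to 30.6% of gene counts in CEK (median 25.2%) and from 17.4 to 30.6% in CON (median 26.1%). Over all libraries, messenger RNAs made 93.3% of the mitochondrial counts, ribosomal RNAs 6.66% and transfer RNAs 0.0685%. How well the mRNA-Seq kit captured each class was not tested, so these are shares of counts and not of RNA in the heart. The counts were very uneven within each class, as the plot of levels by gene shows.

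**Figure D1:**
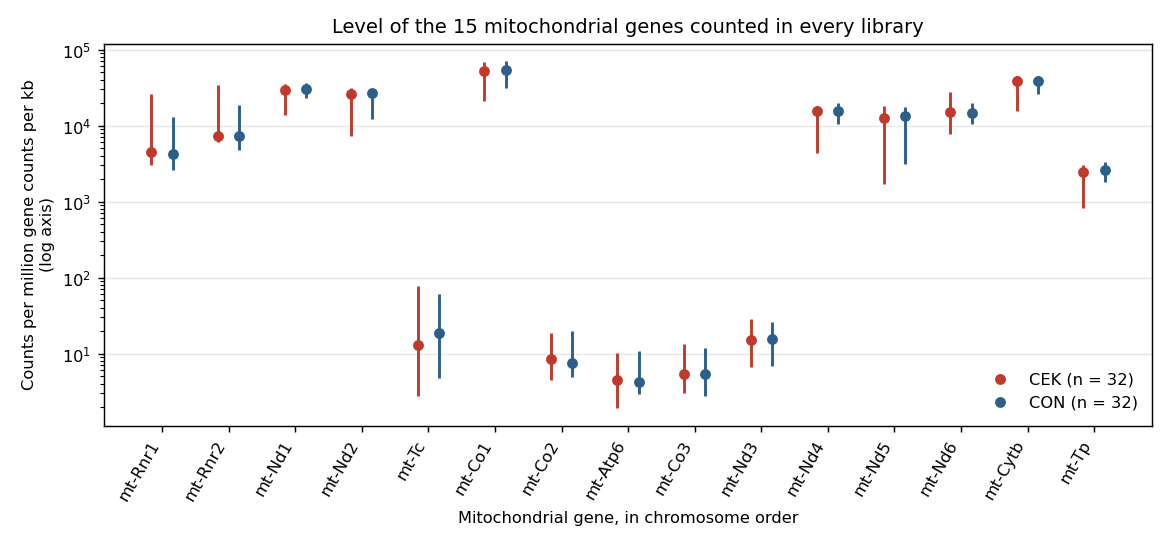
Counts-per-million of gene counts (CPM) per kb (log axis) for the 15 mitochondrial genes that had a count in every library, in chromosome order. Points are medians and lines run from the lowest to the highest of 32 libraries, with CEK left of CON for each gene. The medians of 7 messenger RNAs lie at 12754.5 or above, while mt-Co2, mt-Atp6, mt-Co3, mt-Nd3 and the transfer RNA mt-Tc lie below 100.

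Among messenger RNAs, 7 carried nearly all counts. mt-Co1 (ENSMUSG00000064351.1, GRCm38 mitochondrial chromosome, 5328 to 6872, heavy strand), the catalytic subunit of cytochrome c oxidase, was the most abundant per length. It had 32911 to 106040 CPM (median 81274) in CEK and 48882 to 108329 CPM (median 82070) in CON, and made 35.3% of messenger counts on average. mt-Cytb (ENSMUSG00000064370.1, 14145 to 15288), the cytochrome b of complex III, had 18069 to 51888 CPM (median 44683) in CEK and 30151 to 51885 CPM (median 44797) in CON. Together mt-Co1 and mt-Cytb made 54.4% of messenger counts. In both genes the ranges of the genotypes overlapped almost entirely, and the lowest value in CEK was that of ZT18 replicate 1.

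The remaining 5 of these 7 encode subunits of complex I, the NADH dehydrogenase. mt-Nd1 (ENSMUSG00000064341.1, 2751 to 3707) reached a median of 29898 CPM per kb over the 64 libraries and mt-Nd2 (ENSMUSG00000064345.1, 3914 to 4951) one of 26307 CPM per kb. mt-Nd4 (ENSMUSG00000064363.1, 10167 to 11544) had a median of 15497 CPM per kb and mt-Nd5 (ENSMUSG00000064367.1, 11742 to 13565) one of 12987 CPM per kb. These compare with 52774 CPM per kb for mt-Co1 and 39071 CPM per kb for mt-Cytb on the same scale.

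mt-Nd6 (ENSMUSG00000064368.1, 13552 to 14070) is the only messenger RNA read from the light strand. It had a median of 14913 CPM per kb, between mt-Nd4 and mt-Nd5 on the heavy strand. Its level was 4075 to 14582 CPM (median 7851) in CEK and 5435 to 10247 CPM (median 7587) in CON. The sources used here do not say whether the authors' counting used strand, so reads of mt-Nd6 and of heavy-strand RNA that covers it cannot be told apart in these counts.

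The part of mt-Nd5 in the messenger counts varied widely between libraries. It made 3.64 to 13.4% of messenger counts in CEK (median 9.83%) and 3.27 to 13.05% in CON (median 9.80%). mt-Nd1, which lies near the start of the heavy-strand precursor, kept within 10.9 to 15.3% in CEK (median 12.2%) and 10.7 to 15.2% in CON (median 12.2%). The low mt-Nd5 fractions were found in both genotypes and are described further in the closing observations.

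The other 6 messengers were nearly absent from the counts. mt-Co2 and mt-Co3, subunits of cytochrome c oxidase, mt-Atp6 and mt-Atp8, subunits of the ATP synthase, and mt-Nd3 and mt-Nd4l, subunits of complex I, together held 0.00895% of messenger counts. The most abundant of them per length, mt-Nd3 (ENSMUSG00000064360.1, 9459 to 9806), had a median of 15.4 CPM per kb, against 12987 CPM per kb for the lowest of the 7 abundant messengers. mt-Co2 (ENSMUSG00000064354.1, 7013 to 7696) had a median of 7.65 CPM per kb, mt-Co3 (ENSMUSG00000064358.1, 8607 to 9390) one of 5.40 and mt-Atp6 (ENSMUSG00000064357.1, 7927 to 8607) one of 4.34. mt-Nd4l (ENSMUSG00000065947.3, 9877 to 10173) had 288 counts over all 64 libraries and mt-Atp8 (ENSMUSG00000064356.3, 7766 to 7969) had 95.

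These 6 genes are neighbours, between the end of mt-Co1 and the start of mt-Nd4, and 5 of them are copied almost base for base on chromosome 1. A stretch of 4663 bases on its minus strand (GRCm38, chr1:24611535-24616197) holds 7 annotated genes that copy mt-Co1 in part, mt-Co2, mt-Atp6, mt-Co3, mt-Nd3, mt-Nd4l and the first 876 bases of mt-Nd4, in the order of the mitochondrial chromosome. Over the 7 copies, 4142 of 4149 bases were identical in the GENCODE M21 transcripts. Some copies stop up to 3 bases short of the end of the mitochondrial gene, so spacing was counted between the copied parts. It was equal on both chromosomes for 5 of the 6 neighbouring pairs, and for the pair mt-Nd3 and mt-Nd4l it was 74 bases on chromosome 1 against 73 on the mitochondrial chromosome. Gm28661, Gm10925, Gm28437, Gm10222 and Gm28439, the copies of mt-Co2, mt-Atp6, mt-Co3, mt-Nd4l and mt-Nd4, had no difference from the mitochondrial gene over their length.

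The other 2 copies differed, and their first 60 bases are shown beside the mitochondrial gene because they hold every difference found. Positions count from 1 at the 5′ end of the mitochondrial gene, and capitals mark the bases that differ. The copy of mt-Nd3 differed by the single substitution T3C, and the copy of mt-Co1 by T1056A, C1057T, A1059G, A1060G, C1062A and A1066T, all at its 5′ end. The start of mt-Co2, in lower case throughout, is shown as a gene whose copy has no difference.
mt-Nd3: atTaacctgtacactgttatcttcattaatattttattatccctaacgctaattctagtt
Gm28438: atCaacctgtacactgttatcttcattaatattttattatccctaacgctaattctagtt
mt-Co1: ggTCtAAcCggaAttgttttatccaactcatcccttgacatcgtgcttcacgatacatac
Gm29216: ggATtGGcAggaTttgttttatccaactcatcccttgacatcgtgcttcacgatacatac
mt-Co2: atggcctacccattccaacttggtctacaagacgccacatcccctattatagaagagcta

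A read that lies whole in such a stretch has more than 1 location in the genome, and the table sets reads with more than 1 location apart from all genes. These reads made a median of 33.3% of all reads in the table (range 24.3 to 37.9%), with 33.2 ± 2.41% in CEK and 33.1 ± 1.91% in CON (SD, n = 32 each). Every 50-base window of each member was looked up in all annotated transcripts of other chromosomes. All windows of mt-Co2 had an exact copy, as did 99.9% of those of mt-Co3, 99.5% of mt-Atp6, 98.8% of mt-Nd4l and 98.0% of mt-Nd3. The abundant messengers had fewer copied windows, with 62.2% for mt-Nd4, 51.1% for mt-Co1, 8.19% for mt-Nd2, 7.61% for mt-Nd5 and 0 for mt-Nd1, mt-Nd6 and mt-Cytb. The 5 genes copied over nearly all windows were among the 6 with the low counts, and their values are reported as uncertain. Whether their reads are among those with more than 1 location was not tested, since the table does not give these reads by gene. mt-Atp8 was the exception, since none of its windows lay in an annotated transcript. Its stretch lies between Gm28661 and Gm10925, where the annotation holds no transcript, and the spacing of 233 bases between these copies equals that between the copied parts of mt-Co2 and mt-Atp6, 233 bases (230 between the whole genes). The genome sequence there was not analysed here.

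**Figure D2:**
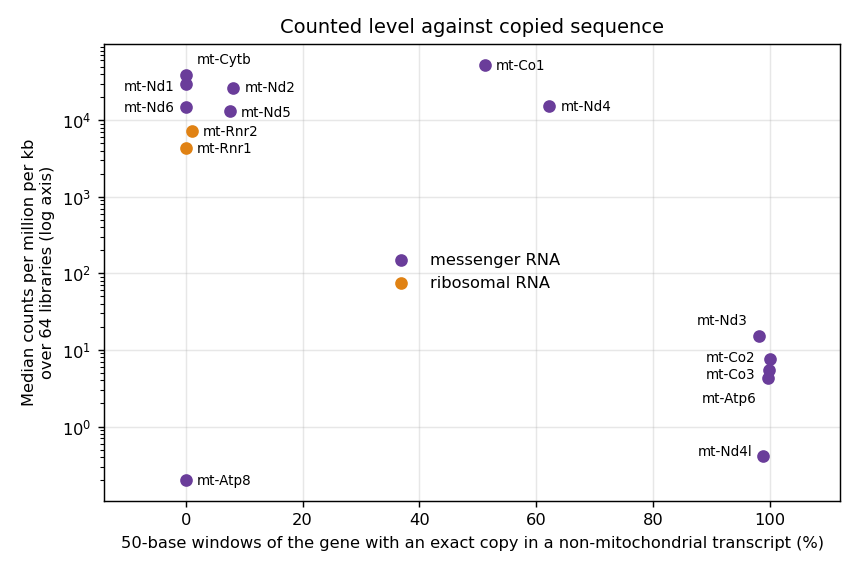
Median counts-per-million per kb over 64 libraries (log axis) against the percentage of 50-base windows of a gene that occur exactly in a non-mitochondrial transcript, 1 point for each messenger or ribosomal RNA. The 5 genes at 98.0% or more lie at or below 15.4, the other points except mt-Atp8 lie at 4344 or above, and mt-Atp8, with 0%, lies at the bottom left.

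The level of partly copied genes depended on how their length was counted. Per kb of windows without a copy, mt-Co1 had 111539 CPM and mt-Nd4 42540 CPM, against 40820 CPM for mt-Cytb, 31511 CPM for mt-Nd1 and 30074 CPM for mt-Nd2. mt-Nd4 thus moved from below mt-Nd1 to above it, while mt-Co1 stayed first on both scales. mt-Nd6, with 16468 CPM, and mt-Nd5, with 14444 CPM, remained the lowest of the 7. The sources used here do not give the read length, so neither scale can be called the correct one.

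The copies themselves carried few counts. Gm28437, the copy of mt-Co3, had a median of 9.02 CPM (5.85 to 19.6) and Gm28661, the copy of mt-Co2, one of 7.55 CPM (5.03 to 15.7). Per length these medians were 11.5 CPM per kb for Gm28437 and 11.1 CPM per kb for Gm28661, against 5.40 CPM per kb for mt-Co3 and 7.65 CPM per kb for mt-Co2. The summed level of the 7 copies was 42.3 ± 14.6 CPM in CEK and 38.95 ± 13.4 CPM in CON (SD, n = 32 each). None of the 7 copies differed between genotypes, with averaged log2 fold changes of -0.13 to 0.14 and adjusted p of 0.476 to 0.978 in edgeR.

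Both ribosomal RNAs of the mitochondrial ribosome lie at the start of the heavy-strand precursor and had almost no copied windows. mt-Rnr1 (ENSMUSG00000064337.1, 70 to 1024), the 12S RNA of the small subunit, had a median of 4344 CPM per kb. mt-Rnr2 (ENSMUSG00000064339.1, 1094 to 2675), the 16S RNA of the large subunit, had one of 7231 CPM per kb. Both lay below every abundant messenger per length in these counts. The ratio of mt-Rnr2 to mt-Rnr1 counts was 2.72 ± 0.376 in CEK and 2.85 ± 0.411 in CON (SD, n = 32 each).

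Transfer RNAs were hardly counted, with 1 exception. mt-Tp, the transfer RNA for proline (ENSMUSG00000064372.1, 15356 to 15422, light strand), held 99.2% of the 301145 transfer RNA counts, with 1179 to 8877 counts in each library. mt-Tc, for cysteine (ENSMUSG00000064349.1, 5192 to 5257, light strand), held most of the rest, with 6 to 140 counts in each library. The other 20 shared 434 counts over all libraries, led by mt-Tn, for asparagine, with 135 and mt-Te, for glutamate, with 103. Among them 15 had fewer than 10 counts in all, and mt-Tw, mt-Td, mt-Tk, mt-Th and mt-Ts2 had none.

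Both counted transfer RNAs border a stretch with no annotated gene, and their sequences are printed since they are the transfer RNAs that the results rest on. mt-Tp is the last annotated gene of the chromosome and borders the control region, and 32 bases separate mt-Tc from mt-Tn, where the origin of light-strand replication lies. mt-Tf, the transfer RNA for phenylalanine at base 1 of the chromosome, borders the other end of the control region and had 1 count in all libraries. Of the other 20, every one lay within 5 bases of a neighbour on each side where one is annotated, apart from mt-Tn. Reads of the transfer RNA and reads of longer RNA that covers mt-Tp and the control region cannot be told apart in these counts.
mt-Tp: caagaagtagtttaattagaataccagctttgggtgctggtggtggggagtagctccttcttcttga
mt-Tc: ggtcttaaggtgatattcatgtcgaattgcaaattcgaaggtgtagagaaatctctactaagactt

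The first comparison asks whether the mitochondrial share of the transcriptome depended on cardiomyocyte E4BP4. It was 24.3 ± 3.62% in CEK and 24.9 ± 3.16% in CON (SD, n = 32 each), a difference of -0.581 percentage points (95% confidence interval -2.33 to 1.17, p = 0.488, two-sided test with 100000 permutations within times). Messenger RNAs alone took 22.5 ± 3.64% of gene counts in CEK and 23.3 ± 3.09% in CON. Ribosomal RNAs took 1.77 ± 1.13% in CEK and 1.61 ± 0.529% in CON, and transfer RNAs 0.0163 ± 0.00290% in CEK and 0.0172 ± 0.00253% in CON. Without the 5 libraries treated apart the difference in share was 0.00238 points. In whole tissue, fewer cardiomyocytes and less mitochondrial RNA in each of them cannot be told apart.

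At single times the largest difference was at ZT0. CEK hearts had 23.9, 23.9, 24.7 and 20.5% there, against 27.1, 26.6, 24.4 and 27.4% in CON hearts. The groups overlapped by 1 pair of libraries, the highest in CEK and the lowest in CON. Their means were 23.3 ± 1.87% in CEK and 26.4 ± 1.36% in CON (SD, n = 4 each), with p = 0.0571 in a two-sided exact permutation test (adjusted over 8 times, 0.457). At the other 7 times the difference ran from -1.02 to 1.16 points with exact p of 0.543 to 0.971, where the smallest p that 4 against 4 libraries allow is 0.0286.

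**Figure D3:**
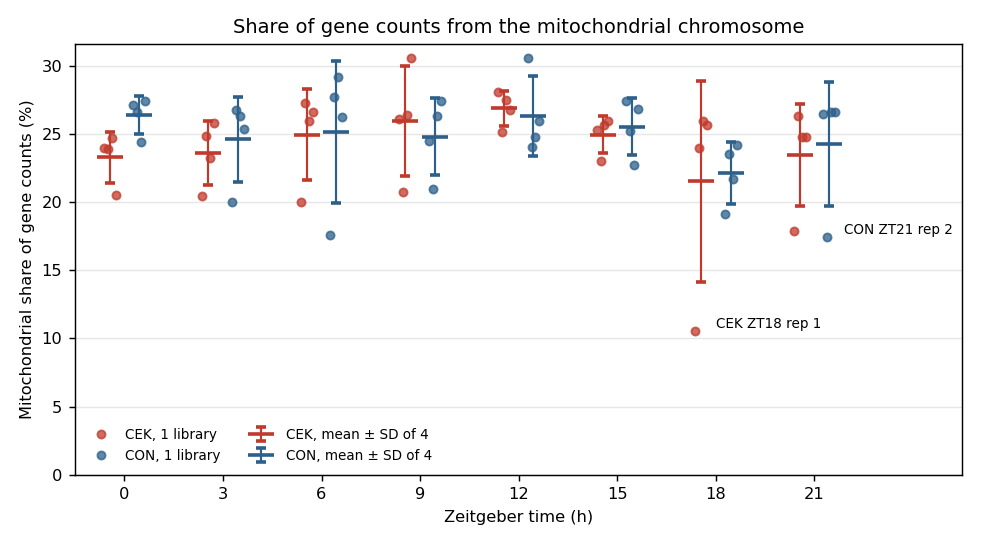
Percentage of gene counts on the 37 mitochondrial genes against zeitgeber time (h), 1 point for each library, with the mean and SD of 4 libraries for CEK (left) and CON (right) at each time. Most libraries lie between 20 and 30%, the genotypes overlap at every time, and replicate 1 of CEK at ZT18 (10.5%) and replicate 2 of CON at ZT21 (17.4%) lie below the others of their groups.

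The share showed no daily rhythm that passed the test. A 24 h cosine had an amplitude of 1.90 points with a peak at ZT9.7 in CEK (p = 0.0965) and of 0.735 points with a peak at ZT7.3 in CON (p = 0.662; 100000 permutations of times, n = 32 libraries in each genotype). The difference in rhythm was not called either (p = 0.485, permutation of genotype labels within times). Leaving out CEK at ZT18 replicate 1 changed the call in CEK, with an amplitude of 1.59 points and a permutation p = 0.0496, as did leaving out CEK at ZT6 replicate 1 (p = 0.0431) or at ZT9 replicate 2 (p = 0.0308).

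The second comparison asks whether single members differed between genotypes when averaged over times. Of the 37 members, 16 passed the filter on low counts: both ribosomal RNAs, 12 messengers without mt-Atp8, mt-Tp and mt-Tc. None of the 16 was called by edgeR's quasi-likelihood test at an adjusted p of 0.05, none had an unadjusted p under 0.05, and DESeq2 called none either, where 12% of all 16417 genes tested were called. The median log2 fold change was -0.04 over the 16 members and 0.00 over all genes tested, and the median size was 0.10 over the members and 0.07 over all genes.

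The 7 abundant messengers all lay slightly below 0. The log2 fold change was -0.12 (SE 0.17) for mt-Nd5 and -0.11 (SE 0.11) for mt-Nd2. mt-Co1 and mt-Nd4 had values of -0.08 (SE 0.07 and 0.08), mt-Nd1 and mt-Cytb of -0.07 (SE 0.06 and 0.07), and mt-Nd6 one of -0.02 (SE 0.09). Their 95% confidence intervals lay between -0.46 and 0.21, with adjusted p of 0.519 to 0.944. All but mt-Nd6 share the heavy-strand precursor, and all 7 share a library's scaling, so their common direction is 1 observation and not 7.

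The other tested members scattered to both sides. The log2 fold change was 0.14 (SE 0.13) for mt-Rnr1 and 0.05 (SE 0.10) for mt-Rnr2. Both values turned negative without CEK at ZT12 replicate 1, to -0.03 for mt-Rnr1 and -0.08 for mt-Rnr2. mt-Tp had a value of -0.11 (SE 0.08) and mt-Tc one of -0.16 (SE 0.23). The 5 copied messengers had values of 0.03 for mt-Nd3, 0.10 for mt-Atp6, 0.14 for mt-Co3, 0.17 for mt-Co2 and 0.29 for mt-Nd4l. With the log2 gene count of each library as a covariate, an alternative added after the data were seen, mt-Atp6 turned to -0.01, mt-Nd4l to -0.11 and the abundant mt-Nd6 to 0.01.

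**Figure D4:**
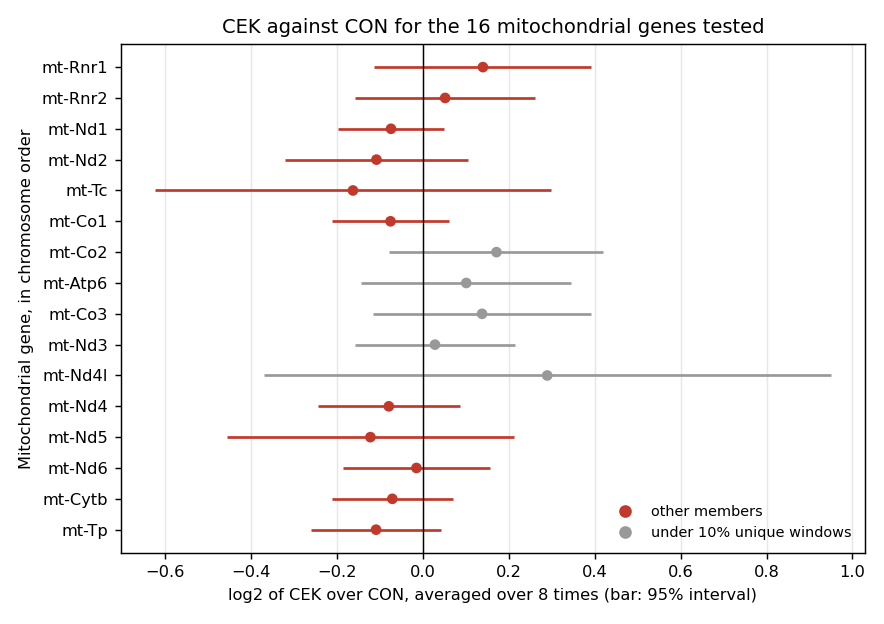
Log2 fold change of CEK over CON averaged over 8 times for the 16 mitochondrial genes tested, in chromosome order from top to bottom, with 95% confidence intervals as bars. Genes with under 10% of windows unique to the mitochondrial chromosome are grey, and every interval includes 0.

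At single times no member was called, where 0.11% (ZT12 and ZT15) to 1.24% (ZT0) of all genes were. The values for the other times were 0.700% at ZT3, 0.189% at ZT6, 0.341% at ZT9, 0.201% at ZT18 and 0.146% at ZT21. At ZT9, 4 members had an unadjusted p under 0.05 in edgeR: mt-Atp6, mt-Co2, mt-Co3 and mt-Nd4l, all among the copied messengers, with log2 fold changes of 0.81 to 2.76 and adjusted p of 0.327 to 0.563. mt-Co2 had 4.18, 5.55, 11.5 and 12.8 CPM in CEK at ZT9, against 5.31, 3.85, 4.98 and 4.46 CPM in CON. Only replicates 3 and 4 of CEK were high, and these were the deepest libraries of that time, with 34.8 and 43.4 M gene counts, against 30.1 and 25.6 M in replicates 1 and 2 of CEK and 21.6 to 25.6 M in CON. Over all times, 11 of the 14 libraries with more than 32 M gene counts, 7 CEK and 4 CON, had more mt-Co2 CPM than any of the other 50 (at most 8.82), a threshold chosen after the values were seen. The 8.82 CPM was that of CON at ZT18 replicate 3, the shallowest library (7.71 M). The remaining deep libraries were lower: CEK at ZT0 replicate 3 (32.6 M, 3.86 CPM), CEK at ZT6 replicate 4 (34.6 M, 4.95 CPM) and CON at ZT0 replicate 2 (33.2 M, 7.30 CPM). With the log2 gene count of each library as a covariate, none of the 4 members had an unadjusted p under 0.05 at ZT9 in edgeR. Their log2 fold changes were 0.45 to 1.15 with adjusted p of 0.532 to 0.640. Gm28661, the copy of mt-Co2, had a log2 fold change of 0.72 at ZT9 in edgeR (unadjusted p = 0.0189, adjusted 0.505). With the covariate it was 0.63 (unadjusted p = 0.0489, adjusted 0.499 in edgeR). Each CEK library at ZT9 was deeper than each CON library, so depth and genotype went together there. Whether depth sets these values was not tested. At ZT21, mt-Tc had an unadjusted p under 0.05, with a log2 fold change of -1.51 (SE 0.61, adjusted p = 1.00).

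Both ribosomal RNAs had an unadjusted p under 0.05 at ZT12, and 1 library set the value. mt-Rnr1 had 25175, 2909, 4296 and 4449 CPM in CEK, against 4029, 2915, 3428 and 3868 CPM in CON. Its log2 fold change was 1.42 (SE 0.36, adjusted p = 0.143 in edgeR), and 0.10 (SE 0.21) without the ribosomal-rich libraries. Leaving out CEK replicate 2 or replicate 3 at ZT12 instead gave a call, with adjusted p of 0.0207 and 0.0482. mt-Rnr2 had 53532, 9737, 12005 and 11254 CPM in CEK, against 12560, 9064, 10515 and 11447 CPM in CON, with a log2 fold change of 1.03 (SE 0.30, adjusted p = 0.291) and -0.01 without the ribosomal-rich libraries. The genotypes overlapped for both genes once replicate 1 of CEK was set aside. At ZT0, 3, 6, 15 and 18, no member had an unadjusted p under 0.05.

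The third comparison asks whether the makeup of the mitochondrial counts differed between genotypes, with ratios inside each library that do not depend on nuclear genes. CEK hearts had 5.13 to 39.1 ribosomal counts for every 100 messenger counts (median 6.50) and CON hearts 4.55 to 18.2 (median 6.46). The difference of mean log2 ratios was 0.13 (95% confidence interval -0.12 to 0.38, adjusted p = 0.463 over 3 ratios, 100000 permutations within times). Transfer RNA counts for every 100000 messenger counts were 62.1 to 90.2 (median 72.0) in CEK and 62.5 to 93.3 (median 72.0) in CON, with a log2 difference of -0.04 (-0.10 to 0.03, adjusted p = 0.463). mt-Nd6 counts for every 100 heavy-strand messenger counts were 2.07 to 8.49 (median 3.61) in CEK and 2.14 to 5.43 (median 3.43) in CON, with a log2 difference of 0.05 (-0.14 to 0.23, adjusted p = 0.579). All 3 intervals included 0.

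The 2 ribosomal-rich libraries held other signs of RNA that differs from the rest. CEK at ZT12 replicate 1 had 39.1 mitochondrial ribosomal counts for every 100 messenger counts, and its nuclear genes annotated as ribosomal RNA took 81367 CPM of nuclear counts. CON at ZT15 replicate 1 had 18.2 and 25868 CPM on the same scales. Nuclear ribosomal RNA genes took at most 2835 CPM in any of the other 62 libraries. Reads outside genes made 12.6% of reads in the CEK library and 6.53% in the CON library, where the median of all libraries was 3.56%. CEK at ZT18 replicate 1, with 21.96 mitochondrial ribosomal counts for every 100 messenger counts, had another profile: its messenger share was 8.62% of gene counts, the lowest of all.

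The fourth comparison asks whether members cycled over the day, and the ratio of ribosomal to messenger counts passed the test in CON. Ribosomal counts for every 100 messenger counts in CON hearts averaged 7.14 ± 0.569 at ZT0, 6.75 ± 1.24 at ZT3, 6.02 ± 1.57 at ZT6 and 5.38 ± 0.417 at ZT9. They averaged 5.81 ± 0.440 at ZT12, 9.32 ± 5.94 at ZT15, 8.75 ± 1.96 at ZT18 and 7.28 ± 1.51 at ZT21 (SD, n = 4 each). The log2 ratio had a 24 h amplitude of 0.28 with a peak at ZT19.3 (adjusted p = 0.0145 over 3 ratios, 100000 permutations of times). Without the 2 ribosomal-rich libraries the amplitude was 0.26, the peak at ZT20.5 and the adjusted p 0.00156. CON at ZT15 replicate 1 had been set apart partly by this ratio, so the lower p is no independent support. Without the 13 libraries with submitter numbers 14 to 32, of which 1 was at ZT9 or ZT12, the adjusted p was 0.00858. Whether the RNA itself or its capture in the libraries varied over the day was not tested.

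In CEK the same ratio was called only without 1 library, which had been set apart partly by its mitochondrial ribosomal counts. CEK means were 7.71 ± 1.54 at ZT0, 6.62 ± 0.946 at ZT3, 6.51 ± 1.58 at ZT6 and 5.98 ± 0.843 at ZT9. They were 14.2 ± 16.6 at ZT12, 7.29 ± 1.24 at ZT15, 10.7 ± 7.53 at ZT18 and 7.84 ± 1.94 at ZT21. With all libraries the amplitude was 0.23 on the log2 scale (adjusted p = 0.659), and without CEK at ZT12 replicate 1 it was 0.25 with a peak at ZT20.0 and an adjusted p of 0.0430. Without all 5 libraries treated apart, the amplitude was 0.16 and the adjusted p 0.108. The difference in rhythm between genotypes was not called (adjusted p = 0.970 by permutation of genotype labels within times, a test added after the data were seen), so the rhythm is not shown to differ between CEK and CON.

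**Figure D5:**
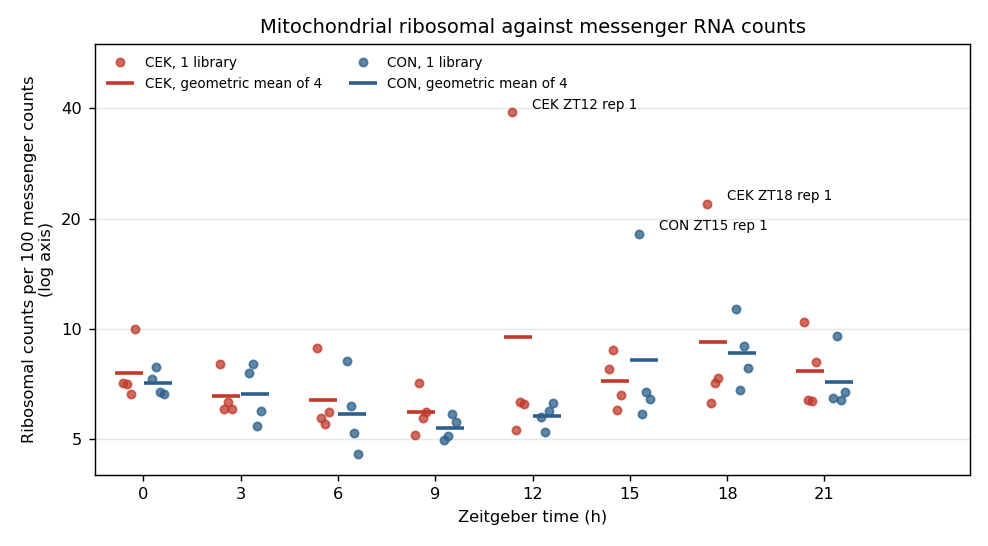
Mitochondrial ribosomal counts for every 100 mitochondrial messenger counts (log axis) against zeitgeber time (h), 1 point for each library and a bar at the geometric mean of 4, with CEK left of CON. In both genotypes the lowest arithmetic mean, which is not drawn, is that of ZT9 (5.98 in CEK and 5.38 in CON). Replicate 1 of CEK at ZT12, of CEK at ZT18 and of CON at ZT15 lie far above the other libraries.

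The ratio of transfer to messenger RNA, which is almost wholly a ratio of mt-Tp, also passed in CON. Transfer counts for every 100000 messenger counts averaged 72.3 ± 1.97 at ZT0, 81.9 ± 12.8 at ZT3, 72.0 ± 5.58 at ZT6 and 66.2 ± 3.16 at ZT9. They averaged 70.8 ± 4.75 at ZT12, 68.6 ± 1.38 at ZT15, 80.3 ± 10.9 at ZT18 and 81.5 ± 6.59 at ZT21 (SD, n = 4 each). The log2 amplitude was 0.11 with a peak at ZT22.3 (adjusted p = 0.0192 over 3 ratios). In CEK the amplitude was 0.03 (adjusted p = 0.659), with means of 69.8 at ZT0 to 76.02 at ZT3. The difference in rhythm had a permutation p = 0.0603 (adjusted 0.181) and was not called. The mt-Nd6 ratio did not cycle in either genotype, with an amplitude of 0.10 and adjusted p of 0.659 in CEK and of 0.11 and 0.271 in CON.

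On the scale of the whole library no member was called as rhythmic in either genotype by edgeR. In CEK, 2 of 16 had an unadjusted p under 0.05 and DESeq2 called 0, where 15.6% of all genes tested were called by edgeR. In CON, 3 of 16 had an unadjusted p under 0.05 and DESeq2 called 2, where 14.6% of all genes were called. For the difference in rhythm, 2 of 16 had an unadjusted p under 0.05, DESeq2 called 0, and 0.00609% of all genes were called.

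The 7 abundant messengers had small daily swings, and none was called. Their amplitudes were 0.03 to 0.13 on the log2 scale in CON, with adjusted p of 0.840 to 0.974, and 0.04 to 0.23 in CEK, with adjusted p of 0.244 to 0.922. The median amplitude of all genes tested was 0.12 in both genotypes. mt-Tp had an amplitude of 0.13 in CEK (adjusted p = 0.375) and of 0.07 in CON (adjusted p = 0.758).

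In CON, the members closest to the threshold were mt-Co2 and mt-Tc. mt-Co2 had an amplitude of 0.43 with a peak at ZT22.9 (adjusted p = 0.0502), and mt-Tc one of 0.83 with a peak at ZT22.4 (adjusted p = 0.0507). DESeq2 called both, with adjusted p of 0.0303 for mt-Co2 and 0.0281 for mt-Tc. The 4 highest mt-Co2 values in CON were those of ZT3 replicates 2 and 4 (9.58 and 11.1 CPM) and ZT21 replicates 1 and 4 (11.05 and 13.5 CPM), and these were 4 of the 5 deepest CON libraries, with 39.7 and 35.8 M gene counts at ZT3 and 34.3 and 32.7 M at ZT21. With the log2 gene count as a covariate, edgeR gave mt-Co2 an amplitude of 0.38 (adjusted p = 0.0752) and mt-Tc one of 0.84 (adjusted p = 0.0425). Whether depth sets the mt-Co2 values was not tested. mt-Tc averaged 2.27 ± 1.64 CPM at ZT18 and 2.12 ± 0.68 CPM at ZT21 in CON, against 0.41 ± 0.09 CPM at ZT9 (SD, n = 4 each). Gm28661, the copy of mt-Co2, had an amplitude of 0.34 with a peak at ZT22.9 in CON (adjusted p = 0.0635). The counts of mt-Co2 and of its copy share a sequence, so neither shows on its own which chromosome the reads came from.

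mt-Rnr1 and mt-Rnr2 were called in CON once the ribosomal-rich libraries were left out. These libraries were set apart partly by the counts tested here, so the calls are no independent support. With 1 library left out, both were called in CON only without CEK at ZT12 replicate 1. The adjusted p was then 0.0184 for mt-Rnr1 and 0.0486 for mt-Rnr2 in edgeR, whose fit shares 1 estimate of the spread between genotypes. Without both ribosomal-rich libraries, mt-Rnr1 had an amplitude of 0.26 with a peak at ZT20.5 (adjusted p = 0.0111) and mt-Rnr2 one of 0.18 with a peak at ZT21.0 (adjusted p = 0.0154), where 14.5% of all genes were called. With all libraries the amplitudes were 0.33 for mt-Rnr1 (adjusted p = 0.218) and 0.24 for mt-Rnr2 (adjusted p = 0.342). In CEK with all libraries, mt-Rnr1 had an amplitude of 0.37 (adjusted p = 0.106) and mt-Rnr2 one of 0.33 (adjusted p = 0.0728), both with a peak near ZT13, the time of the ribosomal-rich CEK library at ZT12.

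Nuclear genes that make, process or use mitochondrial RNA gave calls at the rate of all genes: 12 of 100 tested were called, 1 higher and 11 lower in CEK. Of 19 genes of mitochondrial transcription and its regulators, 0 were higher and 2 lower in CEK, against the 12% of all genes called. These were Perm1, a muscle regulator of oxidative genes (log2 fold change -0.17, SE 0.04, adjusted p = 0.00218), and Mterf2, a mitochondrial DNA-binding protein (-0.14, adjusted p = 0.0125). Of 39 genes of RNA processing, modification and decay, 0 were higher and 5 lower, among them the transfer RNA modifier Mto1 (-0.11), the methyltransferase-like proteins Mettl17 (-0.15) and Mettl15 (-0.14) and the FASTK family member Fastkd3 (-0.13). Of 22 genes of mitochondrial DNA replication and maintenance, the thymidine phosphorylase Tymp was higher (0.28) and the exonuclease Mgme1 lower (-0.18). The call of Tymp (adjusted p = 0.0428 in edgeR) was lost when any of 28 libraries was left out. Of 20 translation factors, 0 were higher and 3 lower: Eral1, a chaperone of the 12S ribosomal RNA (-0.16, adjusted p = 9.88e-05), the initiation factor Mtif3 (-0.12) and the release factor-like Mtrf1l (-0.11). The calls of Mtif3 and Mtrf1l were each lost when any of 8 libraries was left out. Without the filter on low counts, 7 of the calls named in this and the next paragraph were lost. DESeq2, the replicate number as a block and the submitter number as a covariate lost 1 call each.

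The nuclear partners of the mitochondrially encoded subunits gave 3 calls among 75 genes tested (4.0%), where 12% of all genes were called. Complex I had 1 of 36 nuclear subunits called, Ndufs1, which was lower in CEK (-0.15, SE 0.03, adjusted p = 6.25e-05). Complex III had 2 of 9, the core proteins Uqcrc2 (-0.14) and Uqcrc1 (-0.14, adjusted p = 0.0489, lost when any of 44 libraries was left out or with the log2 gene count as a covariate). Complex IV had 0 of 15, with Cox7a1 closest (-0.21, adjusted p = 0.379), and the ATP synthase 0 of 15, with Atp5a1 closest (-0.07, adjusted p = 0.115). The median log2 fold change of these 4 lists was -0.01 to 0.02, where that of all genes tested was 0.00.

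Markers of other cell types are given beside these values, and 12% of all genes were called in the same comparison. Markers of macrophages were higher in CEK for 11 of 12 genes, with a summed level of 385 to 911 CPM in CEK and 321 to 714 CPM in CON. Atrial markers were lower for 6 of 10 genes, with a median log2 fold change of -0.73. Fibroblast markers were higher for 2 of 10, endothelial markers lower for 1 of 10, and cardiomyocyte markers higher for 1 and lower for 2 of 12. Red blood cell and adipocyte markers had 0 of 7 called each, and epicardial markers 1 of 8. The counts for fibroblast, endothelial and epicardial markers lie near the share of all genes called. Their part in the mitochondrial values was not tested.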

How the data were processed

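The deposited values are read counts by gene, made by the authors, per the submitters' processing notes, with bcl2fastq 2.18.0.12, STAR 2.6.1d, HTSeq 0.11.1 and GRCm38. They are whole numbers and were taken as raw counts. The sources used here do not state annotation release, strand setting or read length. Of 48795 gene rows, 48435 matched GENCODE M21 by ID without version, and the 5 rows of read summaries were left out of fits and totals.

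Members, gene lists and tests were chosen with earlier results of these data known. Every messenger and ribosomal RNA is named, transfer RNAs when called or among the 4 highest, and of each other list up to 4 called genes, or the 1 with the smallest p where none is called. edgeR 4.0.16 and limma 3.58.1 in R 4.3.3 fitted 16417 genes (filterByExpr on 16 groups, TMM): 16 group means for genotype differences, and cosine and sine of 24 h in each genotype for rhythms. The threshold for calls was 0.05 after Benjamini-Hochberg adjustment across the genes tested. Shares and ratios used 100000 permutations, or the 70 exact splits at one time. Positions and sequences come from GENCODE M21 transcripts. DESeq2 1.42.0, RLE scaling, library sizes from nuclear genes, no filter, the replicate number as a block, the submitter number and each left-out library were alternatives. For shares and ratios the replicate number paired the genotypes within a time instead. Leaving out named libraries and the log2 gene count as a covariate were added after the data were seen. Only edgeR's tests of the averaged genotype difference and of the rhythm in CON were checked on simulated data. The permutation tests were not.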

Additional observations from a re-analysis of the deposited data

Results flagged for a closer look

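In 80 groups of 4 libraries, 12 values stood further from the other 3 than Dixon's 95% critical value allows, and chance flags about 1 in 20 such groups. The mitochondrial share was 10.5% in CEK at ZT18 replicate 1, where the others of the group had 24 to 26%, and 17.4% in CON at ZT21 replicate 2, where the others had 26.4 to 26.6%. Ribosomal counts for every 100 messenger counts were 9.99 in CEK at ZT0 replicate 4, 8.02 in CEK at ZT3 replicate 1, 8.86 in CEK at ZT6 replicate 1, 39.1 in CEK at ZT12 replicate 1 and 22 in CEK at ZT18 replicate 1. In CON they were 18.2 at ZT15 replicate 1 and 9.54 at ZT21 replicate 2. All of these ribosomal values lay above the others of their groups. mt-Nd6 counts for every 100 heavy-strand messenger counts were 8.49 in CEK at ZT0 replicate 4, where the others had 2.47 to 3.38, and 6.72 in CEK at ZT18 replicate 1, where the others had 3.28 to 3.77. mt-Nd5 made 3.64% of messenger counts in CEK at ZT18 replicate 1, where the others had 9.62 to 10.3%. CEK at ZT18 replicate 1 was set off in 4 of the 5 measures, all but the transfer to messenger ratio, and which property of its RNA goes with this was not tested.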

How the results depend on the processing

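The count of members called stayed at 0 for the averaged genotype difference and the difference in rhythm under all alternatives run, and at single times except at ZT12. It was 0 to 1 at ZT12 with 1 library left out. For the rhythm in CEK it was 1 without the 3 libraries that stood apart and 0 to 1 with 1 library left out. For the rhythm in CON it was 2 with DESeq2, 1 with RLE scaling, 1 with library sizes from nuclear genes and 1 with the log2 gene count as a covariate. It was 3 without the 2 ribosomal-rich libraries, 2 without the 3 libraries that stood apart, 3 without all 5, and 2 with submitter numbers 14 to 32 as a factor and without the 2. With 1 library left out it was 0 to 3. In each case the cause was not tested.

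Averaged log2 values near 0 changed sign. mt-Nd3 was -0.011 without the 3 libraries and -0.015 to 0.056 with 1 left out. mt-Nd6 was 0.0016 without the 2 ribosomal-rich libraries, 0.0067 with submitter numbers 14 to 32 as a factor, 0.026 with both changes, 0.013 with the log2 gene count as a covariate, and -0.079 to 0.011 with 1 left out. mt-Nd5 was 0.00345 with both changes. With the log2 gene count as a covariate, mt-Atp6 was -0.015 and mt-Nd4l -0.107. mt-Rnr2 was -0.0082 without the 2, -0.012 without the 5, -0.0029 with both changes and -0.079 to 0.12 with 1 left out, and mt-Rnr1 was -0.026 to 0.22 with 1 left out. mt-Rnr2 at ZT12 was -0.015 without the 2, -0.0068 without the 5, -0.0015 with both changes and -0.015 to 1.29 with 1 left out.

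The share differed by 0.00238 points without the 5 libraries, and by -0.898 to -0.123 with 1 left out. At single times, leaving out 1 library gave -2.55 to 0.0353 at ZT3, -2.75 to 1.44 at ZT6, -0.395 to 2.90 at ZT9, -0.220 to 1.95 at ZT12, -1.51 to 0.0868 at ZT15, -2.08 to 3.06 at ZT18 and -3.10 to 1.02 at ZT21. Its amplitude in CEK was 1.59 to 2.28 points with 1 left out. The difference in rhythm of the share was called without the 13 libraries of submitter numbers 14 to 32 (1.97 points, permutation p = 0.0284), a setting chosen after the data were seen. The ribosomal ratio had an amplitude in CEK of 0.25 without the 2 and of 0.14 to 0.26 with 1 left out. The mt-Nd6 ratio differed by -0.012 without the 3, -0.00075 with medians and -0.00098 to 0.073 with 1 left out.

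Replicate numbers were not used to pair the genotypes in the main tests. Of 32 same-numbered pairs, 20 had deviations from their group means that correlated above 0.1 (lowest -0.431, median 0.152, highest 0.522). Differently numbered pairs were not compared, so whether same-numbered libraries belong together was not tested. With the replicate number as a block, 0 members were called in every comparison, and the share differed by -0.581 points (permutation p = 0.362). The SE of that difference was 0.622 points with the pairing and 0.871 points without it. Shares rest on at least 7.71 M gene counts in each library, so their limit is the spread between libraries. The ratios rest on mitochondrial counts alone, which were 1672754 in the shallowest library. In the transfer ratio, mt-Tp had as few as 1179 counts in a library, and mt-Nd4l rests on a median of 3 counts.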

Other observations

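mt-Nd5, which lies near the end of the heavy-strand precursor, fell below 7.5% of messenger counts in 14 libraries, with no library between 6.92 and 8.26%. Of these 14, 11 were among the 13 libraries that carry submitter numbers 14 to 32, a range chosen after the values were seen. These 13 comprised 8 CEK and 5 CON libraries, with 1 at ZT9 or ZT12, so they are too few to compare genotypes within them at each time. mt-Nd5 averaged 6.20 ± 3.29% of messenger counts in the 13 and 10.2 ± 1.73% in the other 51, and the mitochondrial share 20.5 ± 4.32% and 25.6 ± 2.11% of gene counts. Ribosomal counts for every 100 messenger counts averaged 9.34 ± 4.12 in the 13 and 7.29 ± 4.93 in the other 51, and mt-Nd6 counts for every 100 heavy-strand messenger counts 4.22 ± 1.06 and 3.45 ± 0.930. The total of gene counts was close in both, 27.8 ± 3.21 M in the 13 and 27.7 ± 6.90 M in the others. What the submitter numbers record is not given in the labels, and no test was made between these libraries.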
